A study of Mus musculus with 12 samples.

Results

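The heat shock chaperones examined here were 10 genes, the transcription factor Hsf1 and 9 chaperone genes, chosen by name (Hsf1, Hspa8, Hspa1a, Hspa1b, Hsp90aa1, Hsp90ab1, Hsph1, Hspd1, Hspe1 and Hspa9). All 10 were present among the 23420 genes of the deposited count table, 7 of them cytosolic or nuclear and 3 mitochondrial. Their RNA was measured in monocytic myeloid-derived suppressor cells (M-MDSCs), which were sorted as CD11b+Ly6G-Ly6Chi cells from tibial bone marrow of male C57BL/6JNIA mice. Aged mice were 24 months old and young mice 6 months old, with 6 mice per age and 1 RNA-seq library per mouse. No transgene or treatment is named for either group. The comparison asked whether age alone altered the cells' transcripts.

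Cytosolic chaperones bind unfolded proteins. HSP70 proteins (Hspa8, which is constitutive, and Hspa1a and Hspa1b, which are heat-inducible) grip exposed peptides in cycles of ATP hydrolysis, J-domain proteins deliver the clients, nucleotide exchange factors such as HSP110 (Hsph1) release them, and HSP90 (Hsp90aa1, inducible, and Hsp90ab1, constitutive) matures kinases and receptors. In mitochondria, mortalin (Hspa9) pulls imported proteins inward, and HSP60 (Hspd1) folds them in a chamber capped by HSP10 (Hspe1). HSF1 is the factor that binds heat shock elements, repeats of the unit GAA in alternating orientation, and switches on the inducible genes when proteins misfold.

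The aged libraries held 8737941 to 16300374 counted fragments and the young libraries 4613239 to 9079237. Values are given in CPM, the count relative to the library total after scaling by TMM factors. Of 9742 genes that passed the filter on low counts, 4425 passed an adjusted p of 0.05 in edgeR, 2185 higher and 2240 lower in aged mice. The sort removes Ly6G+ cells, yet genes of neutrophil granules led the libraries at both ages. Ngp averaged 39630 CPM in aged and 30944 CPM in young mice and S100a8 averaged 35816 and 21062 CPM, against 31.3 and 37.1 CPM for the monocyte receptor gene Ccr2 and 727 and 500.3 CPM for Ly6c2. The 10 classical monocyte markers, of which Itgam was the most abundant at 2895 and 3376 CPM, summed to between 3418 and 4478 CPM in aged and between 4007 and 4194 CPM in young mice, and 1 was called higher, 2 lower and 7 not called. The 12 neutrophil markers summed to between 120275 and 143152 CPM in aged and between 76793 and 120472 CPM in young mice, with 8 called higher and 4 not called. Under a correction for gene length 2 were called higher and 1 lower. The 8 resident macrophage markers in the table summed to between 115 and 1049 CPM in aged and between 75.2 and 101 CPM in young mice. In such bulk samples, fewer cells of a type and less RNA per cell cannot be told apart. Files of the young mice carried the numbers 11 to 16 and those of the aged mice numbers from 17 to 26, and anything that goes with these sample numbers cannot be told apart from age. Nothing in the labels ties the samples to more than 1 mouse each, and p-values measure the spread between these samples.

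The constitutive cytosolic chaperones were by far the most abundant members. Per kilobase of exon, Hspa8 averaged 102 ± 4.56 CPM in aged and 115 ± 18.9 CPM in young mice (SD, n = 6), and Hsp90ab1 averaged 71.2 ± 6.32 and 72.2 ± 9.02 CPM. Hsp90aa1 followed with 7.94 to 13.3 CPM per kilobase in aged and 10.2 to 23.2 in young mice. These 3 genes did not overlap with their neighbours in the order of levels at either age. Hspd1 (5.18 and 5.50 CPM per kilobase), Hsf1 (3.28 and 5.17) and Hspa9 (3.65 and 2.95) formed a middle group in which neighbouring genes overlapped over the mice. Hspe1 came next at 1.97 ± 0.424 and 1.62 ± 0.544 CPM per kilobase. The inducible HSP70 genes and Hsph1 stood last, apart from Hspe1 but overlapping among themselves, with Hspa1b at 0.203 and 0.452, Hsph1 at 0.182 and 0.325 and Hspa1a at 0.0599 and 0.203 CPM per kilobase in aged and young mice.

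**Figure D1:**
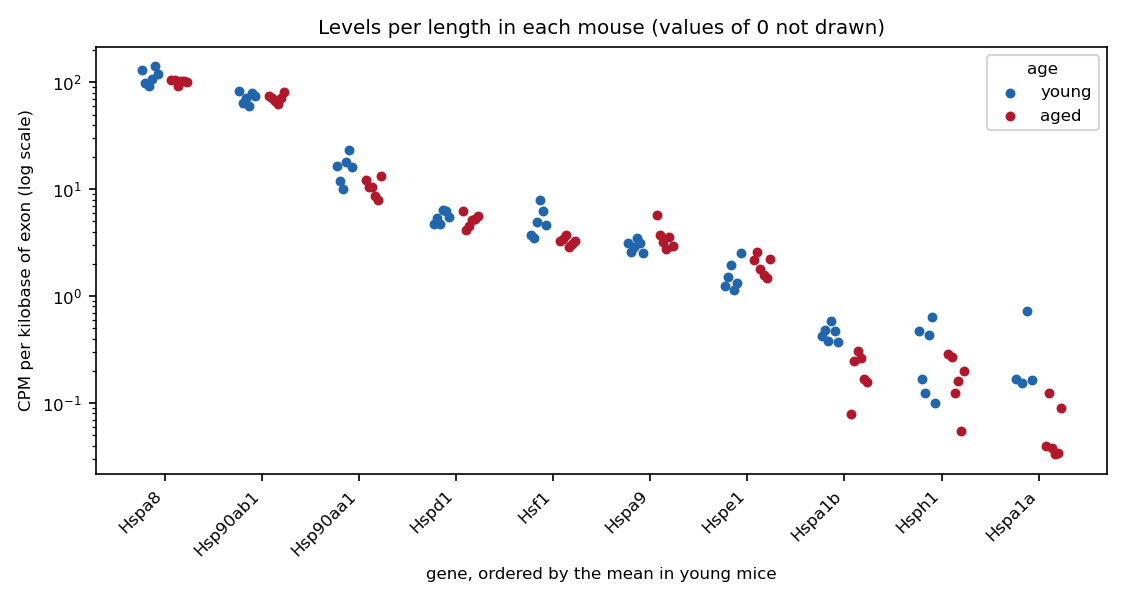
CPM per kilobase of exon (log axis) of each heat shock gene in each mouse, young in blue and aged in red, ordered by the mean in young mice; values of 0 are not drawn. Hspa8 and Hsp90ab1 stand above all other members, and Hspa1b, Hsph1 and Hspa1a stand below 1 CPM per kilobase in every mouse.

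Counting limits these levels unequally, because fragments below a mapping quality of 60 were not counted and several members have close copies. Of all stretches of 100 bases in a representative GENCODE transcript, 63.4% in Hspa8, 56.5% in Hspa1a, 49.9% in Hspa1b, 47.5% in Hsp90aa1, 26.9% in Hspd1 and 22.4% in Hspe1 also occur in a transcript of another gene. No such stretch was shared in Hsf1, Hsph1, Hsp90ab1 or Hspa9. Levels of the genes with shared stretches are therefore uncertain between genes, whereas the same stretches were at stake in every mouse.

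Sequence upstream of the start is shown for the pairs of members that sit side by side in the genome, as given by RefSeq for GRCm38.p6, with capitals marking each GAA or TTC unit of a GAANNTTC or TTCNNGAA match. Both forms read alike on either strand, and matches may overlap. Promoter entries were matched for 5 of the 10 members (Hspd1, Hspe1, Hsph1, Hspa1a and Hspa1b). Hspd1 (chr1:55077834-55087932, minus strand, 12 exons) and Hspe1 (chr1:55088148-55091317, plus strand, 4 exons) face away from each other across 215 bases, which are printed whole on the plus strand (chr1:55087933-55088147) because a start of each gene borders them. Hspa1a (chr17:34969359-34972156) and Hspa1b (chr17:34956429-34959238) are both of 1 exon on the minus strand and 10120 bases apart. They are shown by the 250 bases before each start (chr17:34972157-34972406 and chr17:34959239-34959488). These bases lie outside the counted exons, so their near identity does not bear on how reads of the 2 genes are told apart.
Hspd1-Hspe1 intergenic: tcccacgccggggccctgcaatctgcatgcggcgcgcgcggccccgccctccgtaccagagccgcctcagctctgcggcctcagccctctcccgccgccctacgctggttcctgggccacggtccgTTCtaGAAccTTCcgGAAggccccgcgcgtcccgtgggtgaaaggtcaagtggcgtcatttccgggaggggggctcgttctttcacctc
Hspa1a upstream: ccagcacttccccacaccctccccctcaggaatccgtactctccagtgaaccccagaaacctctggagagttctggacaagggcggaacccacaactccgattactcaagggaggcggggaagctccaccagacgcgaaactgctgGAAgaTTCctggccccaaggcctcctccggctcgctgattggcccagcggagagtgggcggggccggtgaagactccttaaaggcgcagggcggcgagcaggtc
Hspa1b upstream: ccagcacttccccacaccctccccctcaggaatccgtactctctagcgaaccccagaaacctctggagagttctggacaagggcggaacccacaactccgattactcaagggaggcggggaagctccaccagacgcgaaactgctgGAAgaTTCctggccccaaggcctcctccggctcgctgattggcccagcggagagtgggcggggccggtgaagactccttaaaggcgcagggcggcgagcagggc
A second Hspd1 start in RefSeq lies outside the printed bases, and the 250 bases before it (chr1:55088244-55088493) hold no match. The stretch between Hspd1 and Hspe1 holds 3 overlapping matches in a single run of units, which also gives 2 matches to the longer forms GAANNTTCNNGAA or TTCNNGAANNTTC. Among 32817 upstream windows of 250 bases, 12.8% hold a short match and 0.466% a longer one. The Hspa1a and Hspa1b windows were identical at 98.8% of bases and each holds 1 GAANNTTC match. The Hsph1 window holds 1 TTCNNGAA match. A match is a description of letters and not evidence of a bound site.

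Hsf1 RNA was lower in aged mice. Hsf1 (chr15:76477445-76500972, plus strand, 12 exons) measured 5.82 CPM in the lowest, 6.67 CPM at the median and 7.49 CPM in the highest aged mouse, against 7.03, 9.66 and 16.1 CPM in young mice. All but 1 aged mouse lay below every young mouse, and young mice 5 and 6 were the highest at 16.1 and 12.7 CPM. The log2 fold change, aged over young, was -0.68 with an SE of 0.18 (edgeR quasi-likelihood test, Benjamini-Hochberg adjusted p = 0.00751), on means of 6.61 ± 0.579 CPM in aged and 10.4 ± 3.43 CPM in young mice (SD, n = 6). Without young mice 5 and 6 the log2 fold change was -0.37 (edgeR adjusted p = 0.0582) and no longer passed.

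Hsp90aa1, the inducible HSP90, was lower as well, and Hsp90ab1, its constitutive partner, was not called. Hsp90aa1 (chr12:110691036-110696395, minus strand, 11 exons) measured 22.6, 30.0 and 37.8 CPM in the lowest, median and highest aged mouse and 28.9, 46.7 and 66.1 CPM in young mice. The ages overlapped, with 4 of 6 young mice above every aged mouse and young mice 6 and 5 highest at 66.1 and 51.4 CPM. The log2 fold change was -0.62 with an SE of 0.18 (edgeR adjusted p = 0.0104), a level 1.54 times as high in young cells. It was -0.41 (edgeR adjusted p = 0.0691) without young mice 5 and 6. Hsp90ab1 (chr17:45567778-45573261, minus strand, 11 exons) ranged from 158 to 204 CPM in aged mice around a median of 178 CPM, and from 150 to 210 CPM in young mice around 183 CPM. These ranges lay almost on top of each other, and the log2 fold change was -0.02 with an SE of 0.09 (edgeR adjusted p = 0.862).

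Of the HSP70 family, Hspa8 (chr9:40801273-40805199, plus strand, 9 exons) did not pass the test. It measured 197, 217 and 223 CPM in the lowest, median and highest aged mouse and 195, 238 and 297 CPM in young mice. The aged mice lay close together, while 4 young mice lay above all of them and 1 below. The log2 fold change was -0.18 with an SE of 0.09 (edgeR adjusted p = 0.131). It passed under a correction for gene length (-0.26, edgeR adjusted p = 0.0304).

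The inducible HSP70 genes were scarce at both ages, and Hspa1b was the only member whose ages did not overlap. Neither gene passed the filter on low counts, which required a minimum count in enough mice. Hspa1b measured 0.223, 0.586 and 0.855 CPM in the lowest, median and highest aged mouse, from 2 to 8 counted fragments, and 1.04, 1.25 and 1.63 CPM in young mice, from 5 to 15 fragments. Every young mouse thus lay above every aged mouse in CPM, although the raw counts overlapped and counting error is large at such counts. Among the genes that passed the filter, which Hspa1b did not, 12.1% did not overlap with aged mice lower. That 1 of 10 members did so lies near this share. In the fit with no filter, the log2 fold change of Hspa1b was -1.15 with an SE of 0.36 (edgeR adjusted p = 0.0209), where 13.6% of 15827 genes were called lower, and DESeq2 gave -1.17 (adjusted p = 0.0134, with 17.7% of genes called lower). Hspa1a measured 0.0924, 0.109 and 0.350 CPM in aged mice and 0, 0.448 and 2.04 CPM in young mice. Its counts were 1 to 4 fragments in aged mice, and in young mice 0 in 2 mice, 4 in 3 mice and 20 in young mouse 6. In most mice this is near the 3 counts that a count of 0 still allows, equal to 0.188 to 0.643 CPM depending on the library, which covers counting error only. The difference in Hspa1a did not pass in the fit with no filter (log2 fold change -1.82, edgeR adjusted p = 0.0693). Summed, Hspa1a and Hspa1b ranged from 0.334 to 1.05 CPM in aged and from 1.07 to 3.36 CPM in young mice.

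Hsph1 (chr5:149616845-149636315, minus strand, 18 exons), the HSP110 gene, was also below the filter. It measured 0.189, 0.622 and 1.003 CPM in the lowest, median and highest aged mouse and 0.347, 1.05 and 2.24 CPM in young mice. The ages overlapped, and 3 young mice lay above every aged mouse. The fit with no filter gave a log2 fold change of -0.92 with an SE of 0.48 (edgeR adjusted p = 0.169).

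None of the 3 mitochondrial chaperones was called. Hspd1 measured 9.67, 12.2 and 14.6 CPM in the lowest, median and highest aged mouse and 10.9, 12.7 and 15.1 CPM in young mice, and the ages overlapped almost wholly (log2 fold change -0.09, SE 0.12, edgeR adjusted p = 0.547). Hspe1, its lid, measured 1.14, 1.53 and 1.98 CPM in aged and 0.868, 1.10 and 1.97 CPM in young mice. Its log2 fold change of 0.29 with an SE of 0.26 (edgeR adjusted p = 0.370) turned to -0.12 under the correction for gene length. Hspa9 (minus strand of chromosome 18, 17 exons) measured 8.32, 10.3 and 17.4 CPM in aged mice and 7.75, 9.13 and 10.6 CPM in young mice. Aged mouse 1 stood apart at 17.4 CPM, and it also had the highest sum of resident macrophage markers, 1049 CPM. A part of those markers in the Hspa9 value was not tested. The log2 fold change of Hspa9 was 0.29 with an SE of 0.17 (edgeR adjusted p = 0.166), and 0.12 without aged mouse 1.

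**Figure D2:**
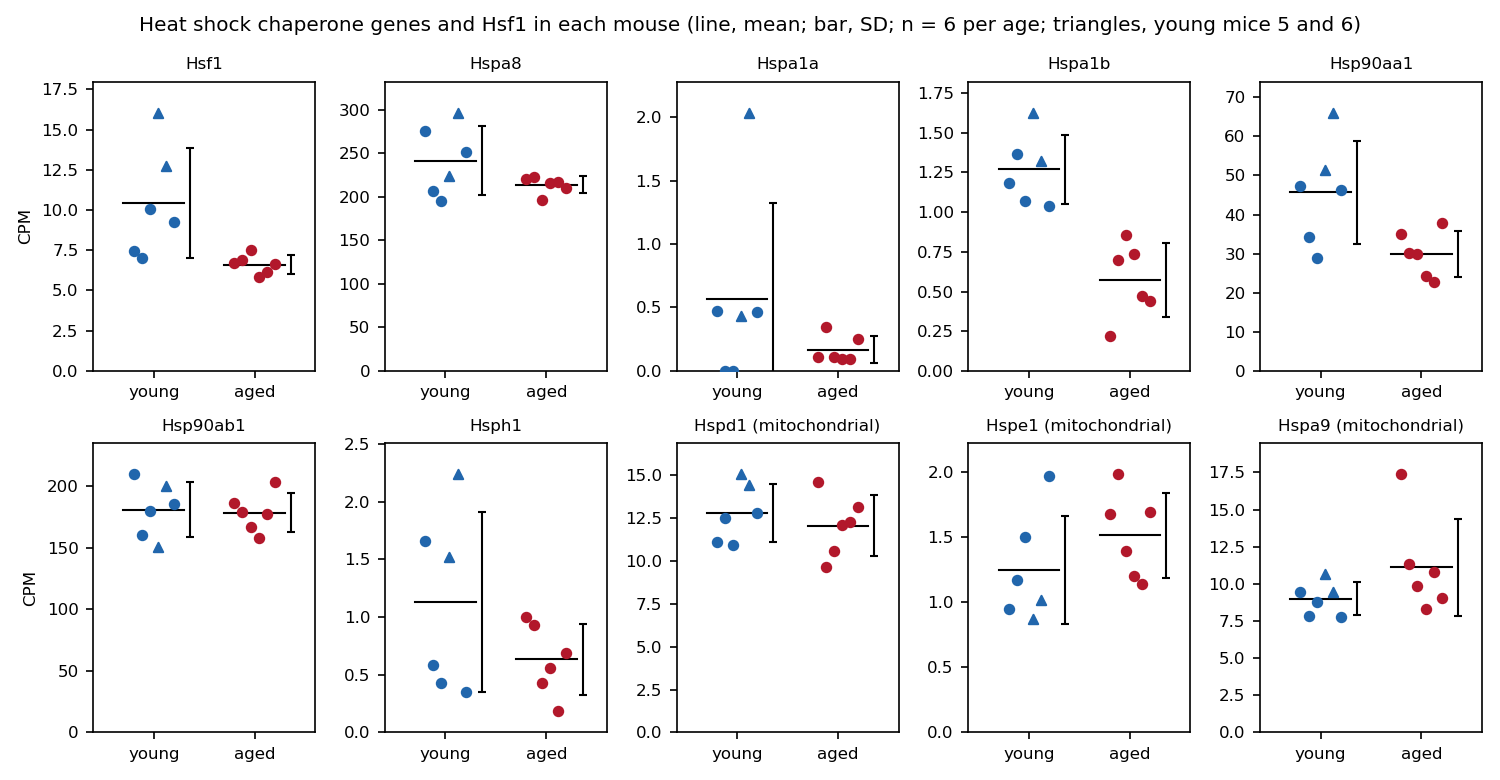
CPM of each heat shock gene in each mouse, young in blue and aged in red, with the mean as a line and the SD as a bar (n = 6 per age); triangles are young mice 5 and 6, and the lower SD bar of Hspa1a in young mice ends at the axis. Hspa1b is the panel without overlap, from 0.223 to 0.855 CPM in aged and from 1.04 to 1.63 CPM in young mice.

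Over all members, 7 were tested, 2 were called lower (Hsf1 and Hsp90aa1), and 0 were called higher by edgeR, by DESeq2 or at an unadjusted p under 0.05. Of all genes tested, 23.0% were called lower and 22.4% higher in edgeR, and 45.4% in either direction, so 2 of 7 called lower lies close to that background. Without young mice 5 and 6, 0 of the 7 were called lower, against 17.9% of all genes, while Hsf1 and Hsp90aa1 kept their direction. By compartment, 2 of 4 tested cytosolic or nuclear members and 0 of 3 mitochondrial members were called, with median log2 fold changes of -0.40 and 0.29, where all tested genes had a median of 0.01. Under the correction for gene length these medians were -0.44 and -0.12, so the sign of the mitochondrial median turned. They were -0.26 and 0.09 without young mice 5 and 6, and the mitochondrial median was 0.12 without aged mouse 1. Within each mouse, the mean log2 CPM of the mitochondrial chaperones minus that of the 6 cytosolic chaperones averaged -0.38 ± 0.23 in aged and -1.004 ± 0.474 in young mice (SD, n = 6), a difference of 0.62. Of this, the cytosolic mean differed by -0.47, aged minus young, (2.99 ± 0.18 against 3.47 ± 0.46) and the mitochondrial mean higher by 0.15 (2.61 ± 0.20 against 2.46 ± 0.10). The within-mouse values overlapped, 5 young mice lay below every aged mouse, and no test was made of a score over members. With only the 3 cytosolic chaperones past the filter the difference was 0.40.

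Ratios within a mouse asked whether partner genes changed unequally, with 4 ratios compared by a two-sided exact permutation test over the mice. The log2 ratio of Hsp90aa1 to Hsp90ab1 was -2.58 ± 0.21 in aged and -2.02 ± 0.41 in young mice (SD, n = 6). Hsp90aa1 has stretches shared with other genes, so its level relative to Hsp90ab1 is uncertain as a fraction of RNA. In CPM not divided by length, Hsp90aa1 was between 0.129 and 0.189 of Hsp90ab1 in aged mice. In young mice it was between 0.162 and 0.343, and 5 of 6 exceeded every aged mouse. The difference of -0.56 with an SE of 0.19 gave an exact permutation p of 0.0130 (adjusted over the 4 ratios, 0.0260). It was -0.33 without young mice 5 and 6 (exact permutation test, adjusted p = 0.124), and leaving out aged mouse 2 or aged mouse 6 alone gave adjusted exact permutation p-values of 0.0519 and 0.0606.

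The log2 ratio of Hspa1a plus Hspa1b to Hspa8 was -7.86 ± 0.47 in aged and -6.94 ± 0.36 in young mice (SD, n = 6), and the ages did not overlap. These log ratios carry a prior count of 2. In the raw counts, each fragment of inducible HSP70 stood against 204 to 659 fragments of Hspa8 in the aged libraries and 88.4 to 182 in the young ones. The difference of -0.91 with an SE of 0.24 gave an exact permutation p of 0.00216, the smallest that 6 against 6 mice can give (adjusted, 0.00866). Without young mice 5 and 6 it was -0.69 (exact permutation test, adjusted p = 0.0762). The mitochondrial ratios did not pass. Hspe1 to Hspd1 differed by 0.35 with an SE of 0.25 (exact permutation p = 0.193). That difference was -0.02 under the correction for gene length and 0.10 without young mice 5 and 6. Hspa9 to Hspd1 differed by 0.35 with an SE of 0.16 (exact permutation p = 0.0563, adjusted 0.0750), and 4 of 6 aged mice exceeded every young mouse. The latter passed under the correction for gene length (0.43, exact permutation test, adjusted p = 0.0433).

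**Figure D3:**
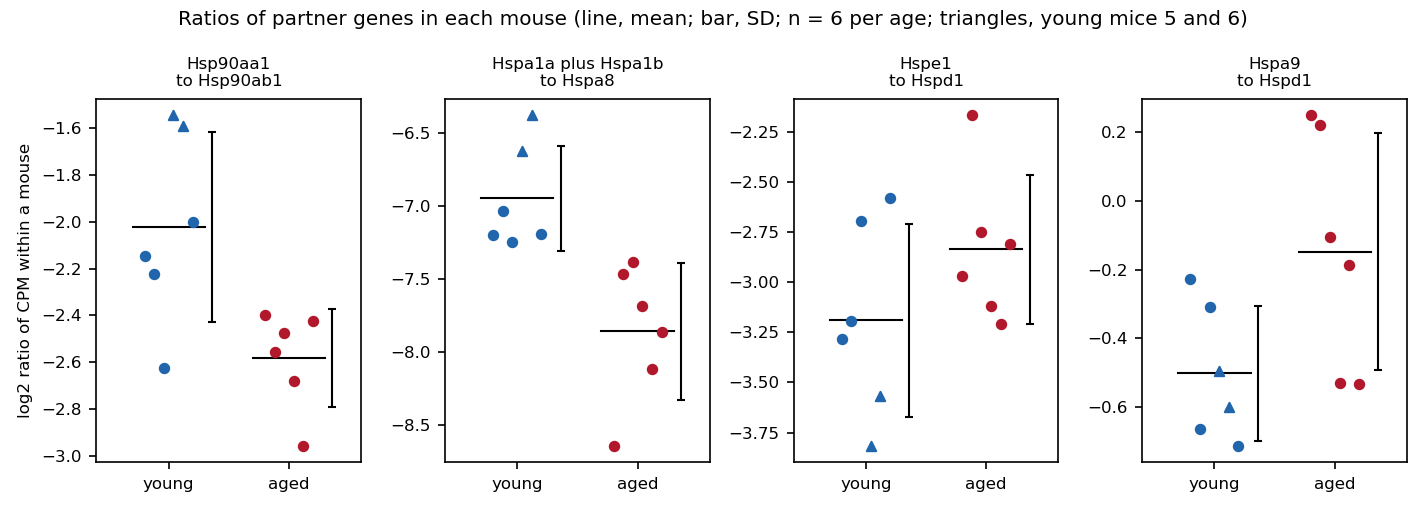
Log2 ratio of CPM of partner genes within each mouse, young in blue and aged in red, with the mean as a line and the SD as a bar (n = 6 per age); triangles are young mice 5 and 6. The ratio of Hspa1a plus Hspa1b to Hspa8 runs from -8.64 to -7.38 in aged and from -7.25 to -6.38 in young mice.

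Young mice 5 and 6 had the highest sums of 10 proliferation genes (1384 and 1358 CPM, against 739 to 912 CPM in the other young mice) and the lowest sums of neutrophil markers (76793 and 77489 CPM). Of the proliferation genes, Mki67 (log2 fold change -2.01) and Top2a (-0.62) were called lower in aged mice, and 8 were not called. The call of Top2a was lost without young mice 5 and 6, under the correction for gene length, and in 6 of 12 fits that left out 1 mouse. Moreover, 2 of 10 is near the 23.0% of all genes called lower. Immediate-early genes, which respond within minutes to cell handling as well as to signals, were lower in aged mice. Of 14 such genes, 11 were called lower and 3 were not called (median log2 fold change -0.68). Calls of Jun and Nr4a1 were lost without young mice 5 and 6. The sums of the 14 genes did not overlap, from 2725 to 3802 CPM in aged and from 3938 to 5459 CPM in young mice. Fosb (log2 fold change -1.98, edgeR adjusted p = 0.00430) fell most, and young mouse 6, the highest in Hsp90aa1 and Hspa1a, had the highest sum. The part of these processes in the chaperone differences was not tested.

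In the wider chaperone network, 81 of 99 further genes were tested, of which 23 were called higher and 15 lower in aged mice (median log2 fold change 0.09). The counts were 14 higher and 15 lower without young mice 5 and 6, and 14 and 12 under the correction for gene length. Over all genes tested, 22.4% were called higher and 23.0% lower in the fit with all mice and no length correction. Counts of the smaller lists below from that fit are to be read against these shares. The share of all genes called lower was 17.9% without young mice 5 and 6, and also below 23.0% under the correction for gene length. Counts from those alternative fits are therefore not to be read against 22.4% and 23.0%. The chaperonin TRiC, a ring of 8 subunits that folds actin and tubulin, had calls in a single direction. All but Cct3 of its 8 genes were called higher (median 0.32), led by Cct6a (0.47, edgeR adjusted p = 0.00359) and Tcp1 (0.44, edgeR adjusted p = 0.00119). Cct3 gave 0.18 (edgeR adjusted p = 0.171). Over all genes tested, the log2 fold change went down with gene length (Spearman correlation -0.48). The TRiC genes, of 1268 to 2452 bases, are all shorter than the median gene tested, of 2890 bases. Under the correction for gene length 3 of the 8 were still called, and calls of Cct2 and Cct8 were lost without young mice 5 and 6. Prefoldin, which hands clients to TRiC, had 2 of 5 genes called higher and 3 not called (median 0.45), namely Pfdn5 (0.78, edgeR adjusted p = 0.00452) and Vbp1 (0.31). Under the correction for gene length only Pfdn5 was called, at 0.35, and the median was 0.15. Without young mice 5 and 6 Pfdn5 was at 0.47. Summed, TRiC genes held 361 to 415 CPM in aged and 271 to 342 CPM in young mice and did not overlap.

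J-domain proteins, which load HSP70, had calls in both directions. Of 18 tested, 6 were called lower and 2 higher (median -0.20), where 23.0% of all genes were called lower and 22.4% higher. Dnajc1, which sits in the endoplasmic reticulum membrane, fell (-0.82, edgeR adjusted p = 0.00141), and Dnaja1, a partner of Hspa8, measured 43.7 ± 2.91 CPM in aged and 68.3 ± 12.5 CPM in young mice without overlap (-0.65, edgeR adjusted p = 0.000262). Under the correction for gene length these values were -0.41 and -0.40, both still called. Dnajb1, a classical heat-inducible partner, did not pass (-0.10, edgeR adjusted p = 0.356), and Dnajb5 rose (0.71). Of 6 other HSP70 and HSP110 genes, Hspa4l (-0.70) and Hspa4 (-0.22) fell and Hspa2 rose (0.63). Nucleotide exchange factors and HSP70 co-chaperones had 2 of 9 called higher, Bag1 (0.62) and Bag5 (0.54), and 7 not called (median 0.12), a share near that of all genes. Bag1 was at 0.40 both under the correction for gene length and without young mice 5 and 6, and was still called. Of 17 HSP90 co-chaperones, 6 were called higher, among them Pih1d1 (0.48) and Fkbp8 (0.37), and 5 lower, of which Ppid (-0.69) fell most (median -0.13). The correction for gene length left 2 of them called higher and 4 lower. Of the genes named from these chaperone lists, calls of Cct2, Cct6a, Cct8, Vbp1, Hspa4, Bag5 and Pih1d1 were lost under that correction. Those of Cct2, Cct8, Vbp1, Hspa2 and Bag5 were lost without young mice 5 and 6.

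**Figure D4:**
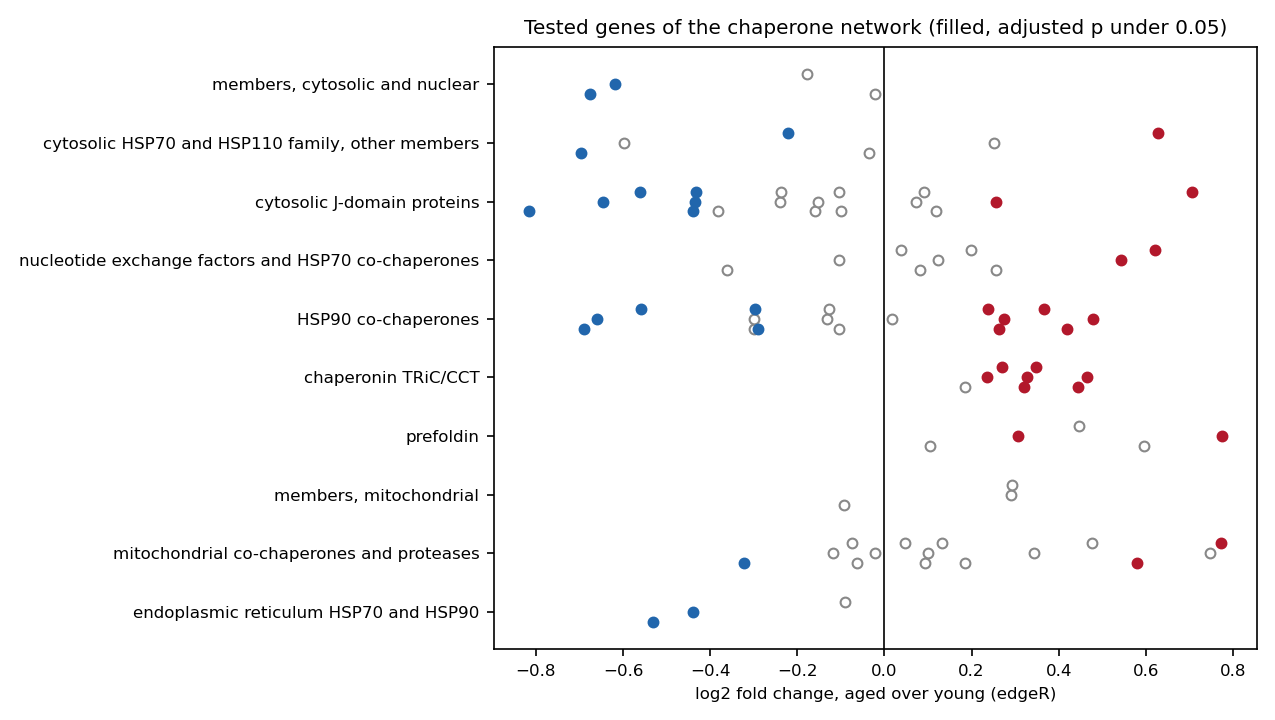
Log2 fold change, aged over young, of every tested gene of the chaperone lists, with filled points for an edgeR adjusted p under 0.05 (red higher, blue lower) and open points for the rest. The TRiC genes lie to the right of 0, whereas J-domain proteins and HSP90 co-chaperones lie on both sides.

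Beside HSF1 itself, Hsbp1, a negative regulator that binds HSF1, was called higher (0.31, edgeR adjusted p = 0.0258) but not under the correction for gene length or without young mouse 5 or 6, and the related Hsbp1l1 was lower, from 3.89 ± 2.40 CPM in young to 0.621 ± 0.286 CPM in aged mice (-2.69, edgeR adjusted p = 0.000204). Small heat shock proteins were nearly absent, with only Hspb6 of 10 genes past the filter and not called. Of 15 mitochondrial co-chaperones and proteases, 2 rose, Dnajc15 (0.77) and Grpel1, the exchange factor of mortalin (0.58, edgeR adjusted p = 0.00189), and Afg3l2, a protease of the inner membrane, fell (-0.32). The call of Dnajc15 was lost under the correction for gene length, and that of Afg3l2 without young mouse 5. Trap1, the mitochondrial HSP90, gave -0.06 and Dnaja3, a J-domain partner of mortalin, 0.09, and neither passed. In the endoplasmic reticulum, Hspa5 measured 212 ± 16.9 CPM in aged and 288 ± 34.9 CPM in young mice without overlap (-0.44, edgeR adjusted p = 0.000819), Hsp90b1 was lower too (-0.53, edgeR adjusted p = 0.0151; not called without young mice 5 and 6), and Hyou1 was not called (-0.09).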

How the data were processed

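M-MDSC RNA of 12 mice was sequenced as stranded paired-end libraries. Per the file headers and the labels, the authors counted fragments per gene with featureCounts 2.0.0 on mm10, leaving out fragments of mapping quality under 60, and deposited raw counts for each mouse; bcl2fastq is named in the submitters' processing notes, and the aligner is not given in the sources used here. Exon lengths in bases are a further deposited column. Columns of the mice were matched by name.

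Counts were filtered with filterByExpr, scaled by TMM and tested, aged against young, with edgeR 4.0.16 (quasi-likelihood, all 12 mice, no covariate, Benjamini-Hochberg over 9742 genes). The log2 CPM used a prior count of 2. Ratios were compared with exact permutation tests (scipy 1.17.1). Alternatives were DESeq2 1.42.0, limma-voom 3.58.1, other scalings and filters, a length correction, thinning to the smallest library total, mice left out, and a replicate block. Scripts were tested on simulated data. Named genes were all members, and per list the largest rise, the largest fall, the smallest p, partners of members and exceptions. Members and lists were chosen with earlier results of these data known. The smallest chi-square per gene between replicates was 1.67, so no library was a duplicate. Pseudogenes of Hspd1 (5), Hspe1 (6) and Hspa9 (1) are named in GENCODE. No sequence of Hspa9 is given. The list of heat-inducible HSF1 targets as a whole is not reported here.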

Additional observations from a re-analysis of the deposited data

Results flagged for a closer look

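Of 30 sets of 6 values that were tested for a sample far from the rest, 2 held one, where chance alone gives about 1 in 20. Hspa1a in young mouse 6 stood at 2.04 CPM, 20 fragments, and its gap to the next young mouse took up 0.768 of the range of the young mice. Hspa9 in aged mouse 1 stood at 17.4 CPM, and its gap took up 0.671 of the range of the aged mice. The critical value for 6 samples is 0.625.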

How the results depend on the processing

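No called result changed direction under the alternatives tried. Leaving out young mice 5 and 6, an alternative added after seeing the data, took Hsf1 to -0.37 (edgeR adjusted p = 0.0582), Hsp90aa1 to -0.41 (0.0691), the number of members called lower from 2 to 0, and further network genes called higher from 23 to 14. It took the ratios of Hsp90aa1 to Hsp90ab1 to -0.33 and of Hspa1a plus Hspa1b to Hspa8 to -0.69. Using only the 3 aged mice whose file numbers precede a gap gave Hsf1 -0.59 (edgeR adjusted p = 0.0845), Hsp90aa1 -0.54 (0.0659), 0 members called lower and 14 network genes called higher. The 3 aged mice after the gap gave Hsf1 -0.75 (0.0389), Hsp90aa1 -0.69 (0.0490), 3 members called lower and 17 network genes called higher. In both subsets 9 members were tested rather than 7, the third one called being Hspa1b, and 17.9% of all genes were called lower before the gap and a smaller share after it. The cause was not tested. Hspa8 passed with library totals in place of TMM (-0.27, edgeR adjusted p = 0.0412) and with the gene length correction (-0.26, 0.0304). That correction gave 14 network genes called higher and a ratio of Hspa9 to Hspd1 of 0.43.

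Leaving out 1 mouse at a time gave -0.23 to -0.11 for Hspa8, which passed without young mouse 2, -0.76 to -0.51 for Hsf1 and -0.71 to -0.48 for Hsp90aa1, both past the threshold each time. The ratio of Hsp90aa1 to Hsp90ab1 ran from -0.68 to -0.47 and did not pass without aged mouse 2 or 6. That of Hspa9 to Hspd1 ran from 0.27 to 0.43 and passed without aged mouse 5 or 7. Same-numbered mice of the 2 ages did not deviate together (correlations -0.25 to -0.07). So few correlations over all genes cannot exclude a pairing, and a fit with a replicate block is given as well. With a replicate block over the 8 mice whose number occurs at both ages, Hsf1 was -0.84 (edgeR adjusted p = 0.0313) and Hsp90aa1 -0.67 (0.0966), against -0.72 (0.0305) in the same mice with no block, and 1 of 7 members was called lower, against 18.9% of all genes. Depth limited Hspa1a, Hspa1b and Hsph1, and the sum of Hspa1a and Hspa1b did not pass the filter and gave no value.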
